A study of Mus musculus with 9 samples.

Results

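Expressed long noncoding RNAs (lncRNAs) were compared between the colon and the small intestine of the mouse, and within the colon between libraries with high and low levels of the stem-cell gene Lgr5. Members were selected on measured levels: they are rows typed as lncRNA whose mean reached 10 CPM (counts scaled to library size, here by TMM) over the 6 colon or over the 3 small intestinal libraries. Of 32952 lncRNA rows among 78239 rows in all, 142 met this rule. A total of 45 reached it in colon alone, 26 in small intestine alone and 71 in both. Polyadenylated RNA was from intestinal epithelium of 8-week-old mice of the Lgr5-2A-eGFP line, which carry a GFP reporter of Lgr5, a receptor of R-spondins found on intestinal stem cells. Flow cytometry on GFP gave 3 libraries each of GFP-high colon, GFP-negative colon and small intestine. At least 30000 cells per fraction were collected from colon and 50000 from small intestine. The labels name no GFP fraction for the small intestinal libraries and do not tie libraries to separate animals; the p-values therefore reflect differences among libraries that may be technical.

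Libraries held 86621513 to 106673547 counts, of which lncRNA rows took 0.621% to 0.965% and the 142 members 0.303% to 0.558%. Summed epithelial markers lay between 8793 and 21937 CPM and summed stromal markers at 6.32 CPM or less. Levels of Lgr5 itself contradicted the sort labels of the colon replicate 2 pair. It stood at 43.5 and 73 CPM in GFP-high colon replicates 1 and 3 but at 0.958 CPM in the library that bears the label GFP-high, replicate 2. Its GFP-negative counterpart had 62.1 CPM, against 2.84 and 6.28 CPM in GFP-negative colon replicates 1 and 3, and small intestine had 57.9, 120 and 209 CPM.

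LncRNAs are transcripts with no long conserved reading frame. Some act on the chromatin of the gene next to them, some build nuclear bodies, some are the spliced remains of genes whose introns hold small nucleolar RNAs (snoRNAs), and for many no role is known. Many start beside a coding gene and run away from it (divergent) or across it (antisense), so that their level often goes with that of the neighbour. In the gut, lncRNAs of the Hox clusters lie among the homeobox genes that give the tube its head-to-tail order.

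Of the members, 107 carried a symbol and 35 only an identifier. GENCODE M21 on GRCm38 placed 88 of them, on 20 chromosomes; the other 54 identifiers were not found in it, and the annotation behind the counts is not given in the sources used here. In the placed members the median was 4 merged exons, with 12 members of 1 exon. The start of 36 lay within 1000 bases of the start of a coding gene, 20 of them divergent, 13 antisense and 3 on the same strand. In 31 members an exon overlapped a coding exon. The strand setting of the counting is not given in the sources used here, so reads of such pairs cannot be told apart. RefSeq lists 2 members, Gsdmcl2 and 9030619P08Rik, as transcribed pseudogenes, 1 further member as a pseudogene and D17H6S56E-5 as protein coding. GENCODE M21 types 2 members, 9130230L23Rik and Gm12216, as protein coding.

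RefSeq promoters (GRCm38.p6, 250 bases before to 50 after the start) were found for 67 members. The 4 printed here belong to members that the regional or the Lgr5 comparison turns on. Hoxa11os (chr6:52244993-52245292, plus strand) and Pla2g10os (chr16:13729586-13729885, plus strand) were higher in colon. BC049987 (chr9:44672211-44672510, minus strand) was higher in small intestine, and 1810006J02Rik (chr1:98131217-98131516, plus strand) was highest in colon libraries with low Lgr5. Each reads 5′ to 3′ on its own strand, and the capitals mark the first 50 bases from the RefSeq start. The Hoxa11os window lies inside the gene as M21 places it (52244393 to 52249799), so the 2 annotations differ in its start.

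Hoxa11os: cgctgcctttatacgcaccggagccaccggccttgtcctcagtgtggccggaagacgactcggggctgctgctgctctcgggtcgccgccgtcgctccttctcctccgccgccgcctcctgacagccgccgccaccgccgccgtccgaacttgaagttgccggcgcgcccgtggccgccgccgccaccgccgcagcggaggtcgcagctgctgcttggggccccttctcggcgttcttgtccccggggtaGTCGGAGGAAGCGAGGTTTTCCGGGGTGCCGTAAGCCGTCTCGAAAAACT
Pla2g10os: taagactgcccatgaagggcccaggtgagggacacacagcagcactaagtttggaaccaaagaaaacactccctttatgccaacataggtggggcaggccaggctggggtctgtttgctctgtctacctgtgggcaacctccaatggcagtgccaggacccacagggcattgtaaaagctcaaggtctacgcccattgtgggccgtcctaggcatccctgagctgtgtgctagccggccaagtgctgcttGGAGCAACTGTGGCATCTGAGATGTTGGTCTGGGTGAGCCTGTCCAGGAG
BC049987: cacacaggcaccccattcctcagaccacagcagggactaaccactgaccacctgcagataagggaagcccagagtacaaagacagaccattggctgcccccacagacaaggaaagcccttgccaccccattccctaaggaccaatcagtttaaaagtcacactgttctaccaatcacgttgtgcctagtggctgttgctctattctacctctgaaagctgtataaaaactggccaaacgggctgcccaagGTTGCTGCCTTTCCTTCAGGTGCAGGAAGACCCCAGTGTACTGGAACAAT
1810006J02Rik: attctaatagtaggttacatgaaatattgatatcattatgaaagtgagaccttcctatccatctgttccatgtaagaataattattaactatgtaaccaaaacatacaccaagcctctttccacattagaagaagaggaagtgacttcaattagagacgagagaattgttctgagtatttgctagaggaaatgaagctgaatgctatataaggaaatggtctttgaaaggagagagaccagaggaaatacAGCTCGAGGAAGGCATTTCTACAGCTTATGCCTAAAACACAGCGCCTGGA

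The Hoxa11os promoter stood apart in base composition, with 70.3% G and C and 41 CpG, against medians of 54.8% and 13 CpG over 106 promoters of members and 52.7% and 7 CpG over all 32851 promoters. That of 1810006J02Rik had 37% G and C and 3 CpG. Letters of 4 motif cores were searched on both strands. They were CAATAAA, shared by CDX and posterior HOX factors, then AGATAA for the zinc-finger factors of the Gata family, then CTTTGAT for the nuclear partners of Wnt signalling, and last CAAAGTCC for the receptor HNF4. They were found in 1.89%, 7.55%, 0.943% and 0.943% of the promoters of members, and in 4.6%, 11.2%, 3.73% and 1.42% of all promoters. Of the printed promoters, BC049987 held 1 match, AGATAA at position -195 from the start. The other 3 held none of these letters in this window.

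Levels spanned a wide range. On a per-length scale, the mean of a member over all 9 libraries lay between 0.393 and 137 RPKM (CPM per kilobase of gene length), with a median of 4.82 RPKM, while 8970 coding genes that met the same CPM rule had a median of 9.4 RPKM. The highest RPKM values belonged to ENSMUSG00000141158 (137), D17H6S56E-5 (103), ENSMUSG00000127251 (94.1), Gm43305 (72.6) and AW112010 (63.3), a transcript described in mouse immune cells. Gas5, a snoRNA host, followed with 43.8 RPKM. Malat1, a nuclear speckle RNA, stood at 1.62 RPKM and Neat1, the scaffold of paraspeckles, at 3.26 RPKM. Among the 6 colon libraries the median ratio of highest to lowest library was 2.36; it was under 2 in 47 members and over 10 in 9.

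Between regions, most of the abundant lncRNAs did not pass the test, and a smaller set differed widely. The regional means had chosen the members, so the counts that follow describe them and nothing is read from their size. With all 9 libraries in 1 edgeR quasi-likelihood fit and Benjamini-Hochberg adjustment over 20610 genes, 34 of the 142 members (23.9%) were called at an adjusted p under 0.05, 25 higher and 9 lower in colon. Over all genes tested 8.79% were called, 5% higher and 3.79% lower, and among the 9164 genes of any type that met the same level rule 12.5% were, 6.06% higher and 6.41% lower. In 36 members every colon library was above every small intestinal one (9.49% of all genes tested, 9.68% of those that met the level rule) and in 18 below (8.39% and 13.2%). Of the 45 members that reached 10 CPM in colon alone 23 were called, and 8 of the 26 that did so in small intestine alone. Of the 71 that reached it in both, Snhg18, Gm16136 and ENSMUSG00000134746 were called. All 34 had colon and small intestinal libraries that did not overlap. Fewer cells of a type and less RNA per cell cannot be told apart in such bulk samples. The count was 54 in DESeq2 and 2 with the tag that library names share as a block, Foxd2os and Hoxa11os (both adjusted p = 0.0374 there, the highest of their alternatives). That block leaves few of the 9 libraries free to estimate the spread, so its count cannot tell a lost difference from a weaker test. With it 42 members were at an unadjusted p under 0.05 in edgeR, against 60 in the main fit.

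**Figure D1:**
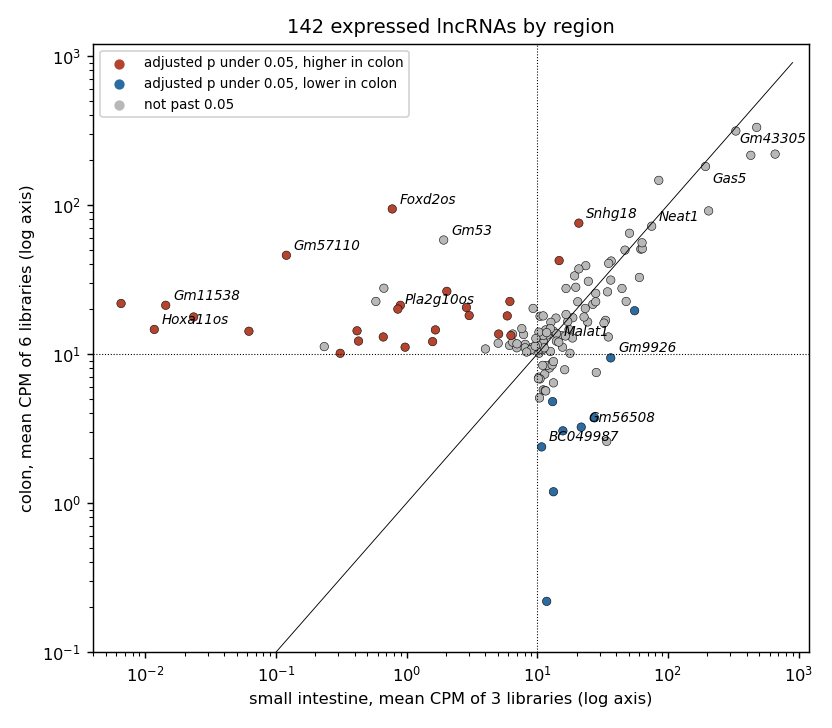
Mean level of each of the 142 lncRNAs in colon (6 libraries, vertical log axis) against small intestine (3 libraries, horizontal log axis), in CPM. Dotted lines mark 10 CPM and the solid line equal levels. The 25 members called higher in colon run out to the left at small intestinal means down to 0.00651 CPM. The 9 called lower lie to the right of the vertical dotted line, at small intestinal means of 10.8 to 55.6 CPM.

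By CPM, Foxd2os was the most abundant in colon of the lncRNAs called by region. It starts 384 bases from Foxd2, a forkhead transcription factor gene, and runs away from it (chromosome 4, 114909257 to 114921967, plus strand, 5 merged exons). It stood at 120, 95.7 and 100 CPM in GFP-high colon, at 90.7, 96.3 and 60.1 CPM in GFP-negative colon and at 0.494, 0.889 and 0.945 CPM in small intestine. Every colon library was thus far above every small intestinal one, and the colon fractions lay close together. The mean was 121-fold higher in colon (93.9 ± 19.5 CPM, SD, n = 6) than in small intestine (0.776 ± 0.246 CPM, n = 3), with a log2 fold change of 6.90 ± 0.37 (SE, adjusted p = 3.58e-05 in edgeR). Foxd2 itself had 49.1, 20.7 and 52.4 CPM in GFP-high colon, 24.4, 47.9 and 23.4 CPM in GFP-negative colon and 0.0274, 0.176 and 0.163 CPM in small intestine (log2 fold change 8.15 ± 0.75, adjusted p = 0.00063).

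Of the 8 lists of lncRNAs examined, that of the Hox clusters had the highest median regional difference. Of its 11 rows 9 were tested, with a median log2 fold change of 4.71 against 0.00 over all genes tested; 4 were called higher in colon (Hoxa11os, Hoxaas3, Hottip and Hoxd3os1) and none lower. Members among them were Hoxa11os, Hoxaas3 and Gm53. Hoxa11os, antisense to Hoxa11 (chromosome 6, 52244393 to 52249799, plus strand), was at 17.6, 14.1 and 13.8 CPM in GFP-high colon, 17.1, 15.7 and 9.71 CPM in GFP-negative colon and 0, 0.0195 and 0.0155 CPM in small intestine, where it had 4 counts in all. Its mean was 1255-fold higher in colon (log2 fold change 10.03 ± 0.65, adjusted p = 8.47e-05 in edgeR). An exon of it overlaps Hoxa11, a posterior homeobox gene, which averaged 2.26 ± 1.06 CPM in colon and had no count in small intestine.

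Hoxaas3 runs through the Hoxa cluster (chromosome 6, 52175217 to 52215076, plus strand), and its exons overlap those of Hoxa3 and Hoxa7. In GFP-high colon it had 26.8, 26 and 17.8 CPM, in GFP-negative colon 18.2, 27.1 and 11.5 CPM and in small intestine 0.548, 1.23 and 0.906 CPM (log2 fold change 4.55 ± 0.44, adjusted p = 0.000807 in edgeR). The genes it overlaps were called higher too, Hoxa7 at 58.6 ± 11.5 CPM in colon, against 1.17 ± 1.03 CPM in small intestine (5.64 ± 0.70, adjusted p = 0.00207) and Hoxa3 at 5.58 ± 0.75 CPM in colon, against 0.716 ± 0.642 CPM in small intestine (2.95 ± 0.58, adjusted p = 0.0156). Gm53 (chromosome 11, 96251105 to 96264868, plus strand) starts 20352 bases from Hoxb9 on the same strand. Its levels were 56.3, 70.6 and 53.3 CPM in GFP-high colon, 63.5, 55.7 and 49.2 CPM in GFP-negative colon and 1.04, 4.73 and 0 CPM in small intestine. The groups did not overlap and the means differed 30.2-fold, but the small intestinal libraries spread widely and Gm53 did not pass (log2 fold change 4.92 ± 1.38, adjusted p = 0.062 in edgeR). It passed without small intestine replicate 2 (6.83, adjusted p = 0.049) or replicate 3 (4.29, adjusted p = 0.0134), in limma-voom and with 2 other filters on low counts, in a range of 0.0134 to 0.447 over its alternatives.

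Gm11538 is placed by RefSeq (GRCm38.p6) on chromosome 11, 96203454 to 96205480, which begins 6007 bases past the end of Hoxb13, a homeobox gene of the hindgut. It had 16, 22.4 and 16.2 CPM in GFP-high colon, 30.6, 18.7 and 23.4 CPM in GFP-negative colon and 0.0274, 0 and 0.0155 CPM in small intestine, with 4 counts there in all (log2 fold change 10.48 ± 0.69, adjusted p = 9.32e-05 in edgeR). Hoxb13 averaged 366 ± 160 CPM in colon and 0.313 ± 0.0298 CPM in small intestine (10.17 ± 0.61, adjusted p = 5.52e-05). Both Gm11538 and Hoxb13 were thus far lower in every small intestinal library than in any colon library.

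**Figure D2:**
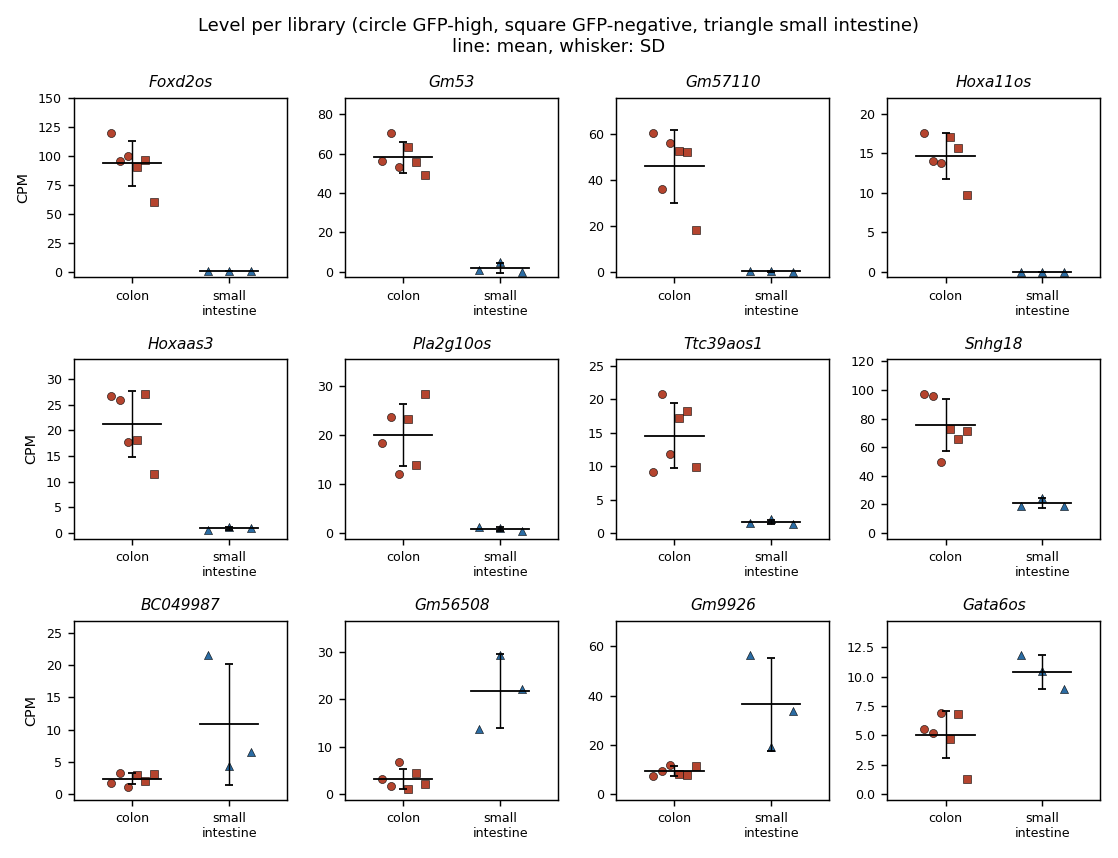
Level of 12 lncRNAs in each library, in CPM on linear axes that differ between panels, colon left of small intestine. Points are libraries, horizontal lines means and whiskers SD (6 colon and 3 small intestinal libraries); in the top 2 rows no colon library reaches down to a small intestinal one, and for BC049987 and Gm9926 the small intestinal libraries spread widely.

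LncRNAs named for a coding gene on the opposite strand gave 10 members, of which 4 were called higher in colon (Foxd2os, Hoxa11os, Pla2g10os and Ttc39aos1) and none lower. Over the whole list of 307 such rows 114 were tested, with 10 called higher and 4 lower and a median log2 fold change of 0.03. Pla2g10os lies on chromosome 16 (13729836 to 13739471, plus strand), antisense to Pla2g10, a secreted phospholipase A2 gene, with starts 1147 bases apart. Its levels were 18.5, 23.8 and 12 CPM in GFP-high colon, 23.3, 13.8 and 28.4 CPM in GFP-negative colon and 1.15, 1.01 and 0.411 CPM in small intestine (log2 fold change 4.54 ± 0.50, adjusted p = 0.00128 in edgeR). Pla2g10 averaged 311 ± 133 CPM in colon and 10.8 ± 9.19 CPM in small intestine (4.83 ± 0.76, adjusted p = 0.00573), a difference of nearly the same size.

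Ttc39aos1 (chromosome 4, 109403794 to 109406155, minus strand) starts 468 bases from Ttc39a, which encodes a tetratricopeptide repeat protein, and runs away from it. It had 9.16, 20.8 and 11.9 CPM in GFP-high colon, 17.2, 18.3 and 9.82 CPM in GFP-negative colon and 1.52, 2.06 and 1.39 CPM in small intestine (log2 fold change 3.13 ± 0.39, adjusted p = 0.00227 in edgeR). The gene Ttc39a averaged 179 ± 46.3 CPM in colon and 15 ± 2.33 CPM in small intestine (3.57 ± 0.32, adjusted p = 0.000496). The other 6 opposite-strand members were not called, among them Tnfsf13os (64.5 ± 7.48 CPM in colon, 50.8 ± 14.3 CPM in small intestine), Brip1os (27.5 ± 11.4 CPM in colon and 44.5 ± 7.51 CPM in small intestine), Fam120aos (30.7 ± 8.76 CPM in colon and 24.6 ± 4.63 CPM in small intestine) and Cep83os (10.8 ± 3.02 CPM in colon and 10.5 ± 2.85 CPM in small intestine).

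Other lncRNAs called higher in colon were named for the size of their difference, and most of those had no position in M21. Gm57110 had 60.4, 36.1 and 56 CPM in GFP-high colon, 52.7, 52.1 and 18.1 CPM in GFP-negative colon and 0.11, 0.234 and 0.0155 CPM in small intestine (log2 fold change 8.58 ± 0.92, adjusted p = 0.00116 in edgeR). ENSMUSG00000136294 averaged 21.8 ± 5.71 CPM in colon and had 2 counts over the small intestine, giving a ratio of 3342 with a 95% counting interval of 925 to 27593 (adjusted p = 0.000169). ENSMUSG00000121716 averaged 17.7 ± 10.3 CPM in colon, against 0.0234 ± 0.0283 CPM in small intestine (9.58 ± 1.04, adjusted p = 0.00122), and Gm15401, whose exons overlap Tcf7l1, a Wnt-pathway factor gene, 14.3 ± 6.42 CPM in colon, against 0.417 ± 0.263 CPM in small intestine (5.09 ± 0.70, adjusted p = 0.00338). The pseudogene 9030619P08Rik averaged 14.2 ± 13.1 CPM in colon and 0.062 ± 0.101 CPM in small intestine (7.92 ± 1.79, adjusted p = 0.0272). Its call was lost without GFP-negative colon replicate 1 (adjusted p = 0.062) or small intestine replicate 2 (0.0784) or 3 (0.112), in a range up to 0.257 over its alternatives.

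LncRNAs lower in colon were fewer and most had no position in M21. ENSMUSG00000143822 had 0.458, 0.098 and 0.372 CPM in GFP-high colon, 0.156, 0.229 and 0 CPM in GFP-negative colon and 9.99, 10.6 and 14.9 CPM in small intestine (log2 fold change -5.88 ± 0.90, adjusted p = 0.00516 in edgeR). ENSMUSG00000142880 was even across the colon, at 3.73 ± 0.622 CPM, against 27.4 ± 5.14 CPM in small intestine (-2.88 ± 0.23, adjusted p = 0.000246). Gm56508 averaged 3.23 ± 2.06 CPM in colon and 21.7 ± 7.76 CPM in small intestine (-2.78 ± 0.50, adjusted p = 0.0105). ENSMUSG00000134746 was well expressed in both regions, at 19.5 ± 4.31 CPM in colon and 55.6 ± 9.4 CPM in small intestine (-1.52 ± 0.23, adjusted p = 0.00479). Gm9926, the nearest coding gene of which is the apoptosis gene Pmaip1 at 45645 bases, averaged 9.41 ± 1.93 CPM in colon and 36.5 ± 18.8 CPM in small intestine (-1.96 ± 0.33, adjusted p = 0.00778).

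BC049987 (chromosome 9, 44670453 to 44672238, minus strand) starts 995 bases from Treh, the gene of the brush-border enzyme trehalase, and runs away from it. It had 1.74, 3.29 and 1.08 CPM in GFP-high colon, 2.9, 2.11 and 3.15 CPM in GFP-negative colon and 21.5, 4.32 and 6.55 CPM in small intestine (log2 fold change -2.19 ± 0.54, adjusted p = 0.037 in edgeR). Small intestine replicate 1 was far above the other two, and without it the value was -1.21 (adjusted p = 0.195). The call was also lost without small intestine replicate 3 or any colon library other than GFP-high replicate 2 (adjusted p up to 0.0918 for these, and 0.445 over all its alternatives). Treh was high in the same library, at 144, 2.65 and 80 CPM in small intestine replicates 1 to 3, and averaged 0.529 ± 0.389 CPM in colon (-7.17 ± 1.03, adjusted p = 0.00401). ENSMUSG00000121482 (1.19 ± 1.75 CPM in colon, 13.3 ± 5.05 CPM in small intestine, -3.68 ± 0.91, adjusted p = 0.0388) lost its call without 7 of the 9 libraries in turn (adjusted p up to 0.11 for these, and 0.194 over all its alternatives). ENSMUSG00000127259 (3.05 ± 1.29 CPM in colon and 15.7 ± 9.01 CPM in small intestine, -2.36 ± 0.49, adjusted p = 0.0189) lost it without GFP-negative colon replicate 1 (0.0589) or small intestine replicate 3 (0.118), in a range up to 0.363 over its alternatives.

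Gata6os, antisense to Gata6 with starts 503 bases apart, had 5.55, 5.21 and 6.86 CPM in GFP-high colon, 4.67, 6.78 and 1.33 CPM in GFP-negative colon and 11.8, 10.5 and 8.9 CPM in small intestine. The regions did not overlap, but the difference did not pass (log2 fold change -1.06 ± 0.43, adjusted p = 0.166 in edgeR). Gata6, a transcription factor gene of the gut endoderm, fell to 39.8 ± 13.9 CPM in colon, against 92 ± 14 CPM in small intestine (-1.23 ± 0.30, adjusted p = 0.0375). An exon of Gata6os overlaps Gata6.

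Members and the coding genes beside them were set side by side, as a description, since both come from the same libraries. Of the 34 called members, 18 had a coding neighbour that was tested, at any distance. The neighbour's estimate lay on the same side in 15, and in 10 the neighbour was itself called on that side. No neighbour was called on the other side and 8 were not called. Over all genes tested 8.79% were called in either direction, and 12.5% of those that met the level rule. Among the 7 called members with starts within 1000 bases, 5 neighbours were called on the same side. Besides those above these were Bhlhe40, a transcriptional repressor gene beside 0610040F04Rik (305 bases), and Tppp beside Gm15912 (53 bases). Snhg18 and Gm16136 were the other 2. Exons of 0610040F04Rik and Hoxa11os overlap Bhlhe40 and Hoxa11, so reads of those pairs cannot be told apart. Snhg18 was 75.4 ± 18.3 CPM in colon and 20.8 ± 3.32 CPM in small intestine (log2 fold change 1.85 ± 0.27, adjusted p = 0.00413 in edgeR), while Sema5a, 148 bases away on the other strand, was 30.5 ± 10.7 CPM in colon and 31.5 ± 7.55 CPM in small intestine (-0.06 ± 0.31, adjusted p = 0.932). Across the 84 members with a tested neighbour, Spearman's rho of the 2 log2 fold changes was 0.46, and across the 54 with no exon shared with a coding gene 0.42; members are not independent replicates.

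**Figure D3:**
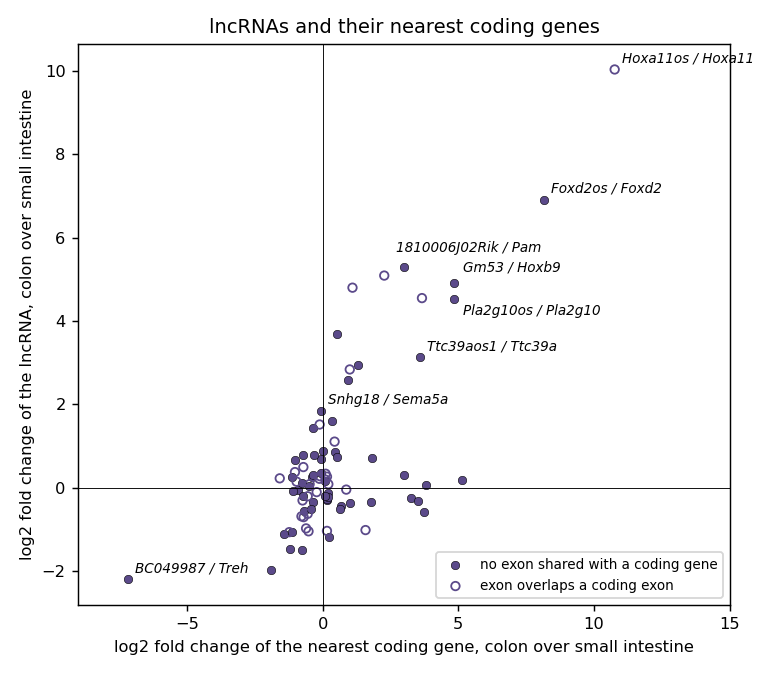
Log2 fold change, colon over small intestine, of 84 lncRNAs (vertical) against that of the nearest coding gene (horizontal); open circles are members with an exon that overlaps a coding exon. The pairs named in the upper right have estimates above 0 for both genes. Of these, the lncRNAs Gm53 and 1810006J02Rik were not called (adjusted p = 0.062 and 0.218 in edgeR). BC049987 and Treh lie at the lower left, and Snhg18 lies above 0 with Sema5a at -0.06. Hoxa11 had no count in small intestine, so its place on the axis depends on the fit's prior count.

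Of 20 snoRNA hosts 19 were tested and 7 were members; 1, the member Snhg18, was called higher in colon and none lower, with a median log2 fold change of -0.17. Gas5 averaged 181 ± 57.2 CPM in colon and 194 ± 65.8 CPM in small intestine (-0.11 ± 0.30, adjusted p = 0.862 in edgeR), Snhg5 25.5 ± 14.1 CPM in colon and 28 ± 9.93 CPM in small intestine, and Zfas1, antisense to Znfx1, 12 ± 6.05 CPM in colon and 14.6 ± 4.08 CPM in small intestine. Of 5 nuclear architecture RNAs none was called; Neat1 averaged 71.9 ± 35.6 CPM in colon and 75.1 ± 51.5 CPM in small intestine (-0.07 ± 0.57) and Malat1 12.2 ± 7.5 CPM in colon and 14 ± 5.47 CPM in small intestine (-0.21 ± 0.52). Of 7 growth and p53 RNAs none was called, among them the members Norad, which binds Pumilio proteins (50.8 ± 17.2 CPM in colon and 63.7 ± 10.3 CPM in small intestine), and Oip5os1, also known as Cyrano (55.7 ± 4.77 CPM in colon and 63.4 ± 8.76 CPM in small intestine). The lists of imprinted and X inactivation centre RNAs held no member. Of 6 imprinted RNAs tested Airn and Rian were called higher in colon, Rian at only 0.112 to 1.45 CPM there and 0 CPM in small intestine. Of 3 X inactivation centre RNAs none was called, and Xist stood at 0.764 CPM or less in every library. Of 11 microRNA hosts tested Rian and Mir205hg were called higher and none lower, and the 1 member, Mir22hg, averaged 11.3 ± 7.15 CPM in colon and 9.64 ± 8.68 CPM in small intestine (0.23 ± 0.82).

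By the labelled fractions, the 142 lncRNAs did not separate. No member was called between GFP-high colon and GFP-negative colon in edgeR (0% over all genes tested). At an unadjusted p under 0.05 were 0 members, against 1.10% of all genes tested and 0.502% of those that met the level rule. DESeq2 and limma-voom also called 0, with 0 at an unadjusted p under 0.05. Leaving out both colon replicate 2 libraries, whose labels Lgr5 goes against, 18 of the 142 members were at an unadjusted p under 0.05, against 7.27% of all genes tested and 6.15% of those that met the level rule in that fit, and 0 were called (0% of all genes tested). With all libraries, the median log2 fold change of the members was 0.1, against -0.02 over all genes tested.

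By their own Lgr5 level, the colon libraries fell into 3 with 20 CPM or more (GFP-high replicates 1 and 3 and the library labelled GFP-negative replicate 2) and 3 under 10 CPM (the library labelled GFP-high replicate 2 and GFP-negative replicates 1 and 3). They are called high-Lgr5 and low-Lgr5 libraries here. Because the split rests on a measured value, levels are given per library with no test. In 50 members (35.2%) the 2 sets did not overlap, 29 higher and 21 lower where Lgr5 was high. Over all genes tested 25.3% did not overlap, 12.2% higher and 13.1% lower, and among genes of any type that met the same level rule 28.8%, 15.1% higher and 13.7% lower. With library sizes taken as total counts the members' split was 44 higher and 11 lower, against 22.4% and 7.73% of all genes tested. The sets were at least 2-fold apart in 8 members, 4 in each direction, which is 5.63% of members, 5.23% of all genes tested and 2.68% of those that met the level rule. Without the replicate 2 pair 68 members did not overlap, where 37.7% of all genes tested did not.

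The widest gaps upwards were those of ENSMUSG00000130823, Gm36548, Gm830 and Mexis. ENSMUSG00000130823 had 15.2, 15.4 and 12.6 CPM in high-Lgr5 libraries, against 0.544, 1.27 and 0.0214 CPM in low-Lgr5 ones, so that the lowest of the first set was 9.92 times the highest of the second. It had 21.1, 45.5 and 18.4 CPM in small intestine. On chromosome 5 (3270319 to 3284584, plus strand), Gm36548 had 59.1, 65.8 and 67.7 CPM in high-Lgr5 libraries, against 13.6, 13.3 and 3.43 CPM in low-Lgr5 ones (4.35 times). Its nearest coding gene, the cell-cycle kinase gene Cdk6 at 71166 bases, had 55.8, 50.4 and 44.7 CPM in high-Lgr5 libraries, against 24.5, 24.3 and 16.4 CPM in low-Lgr5 ones. Gm830 had 25, 62.7 and 33.5 CPM in high-Lgr5 libraries, against 4.41, 6.73 and 1.87 CPM in low-Lgr5 ones (3.72 times).

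Mexis, described in mouse macrophages as a regulator of the cholesterol exporter gene Abca1, had 50.6, 45.2 and 32.3 CPM in high-Lgr5 libraries and 10.9, 8.18 and 9.26 CPM in low-Lgr5 ones (2.96 times). Abca1, 110337 bases away, had 6.03, 3.51 and 2.35 CPM in high-Lgr5 libraries, against 1.26, 1.13 and 6.88 CPM in low-Lgr5 ones, so its sets overlapped. Smaller gaps upwards were those of Gm19696 (1.9 times), ENSMUSG00000137838 (1.67), 4933439C10Rik (1.54) and Gm15987 (1.54). Of 19 snoRNA hosts tested 5 were higher with no overlap (Gas5, Snhg1, Snhg5, Snhg16 and Snhg17) and none lower, where 12.2% of all genes tested were higher. With median-of-ratios scaling 3 were higher (10.7% of all genes tested), and with total counts 10 (22.4%). Gas5 had 283, 185 and 196 CPM in high-Lgr5 libraries, against 139, 161 and 122 CPM in low-Lgr5 ones, and Snhg5 52.7, 27.9 and 22.5 CPM in high-Lgr5 libraries, against 16.2, 17.5 and 15.9 CPM in low-Lgr5 ones.

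The widest gap downwards was that of 1810006J02Rik (chromosome 1, 98131456 to 98144655, plus strand). Its levels were 0.573, 0.261 and 0.12 CPM in high-Lgr5 libraries and 70.1, 12.1 and 52 CPM in low-Lgr5 ones, whose lowest was 21.2 times the highest of the first set. Pam, the gene of the enzyme that amidates peptide hormones, starts 35810 bases away in the divergent direction and had 12, 35.5 and 25.5 CPM in high-Lgr5 libraries, against 70.5, 49.9 and 38.2 CPM in low-Lgr5 ones. The pseudogene 9030619P08Rik had 2.17, 2.63 and 4.26 CPM in high-Lgr5 libraries, against 28.8, 17 and 30.4 CPM in low-Lgr5 ones (3.99 times). AW112010 had 44.6, 61.6 and 50.4 CPM in high-Lgr5 libraries, against 193, 165 and 363 CPM in low-Lgr5 ones (2.68 times), and 0610005C13Rik, whose exons overlap the amino acid enzyme gene Bcat2, 8.28, 9.1 and 8.54 CPM in high-Lgr5 libraries, against 25.4, 21.2 and 28.1 CPM in low-Lgr5 ones (2.33 times). Gsdmcl2, a copy related to the gasdermin C genes, had 0.983, 4.58 and 9.05 CPM in high-Lgr5 libraries, against 54, 17.3 and 79.4 CPM in low-Lgr5 ones (1.91 times), with reads that near-identical gasdermin genes could share. Smaller gaps downwards were those of Gm15401 (1.66 times), ENSMUSG00000121716 (1.63) and ENSMUSG00000121431 (1.39).

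**Figure D4:**
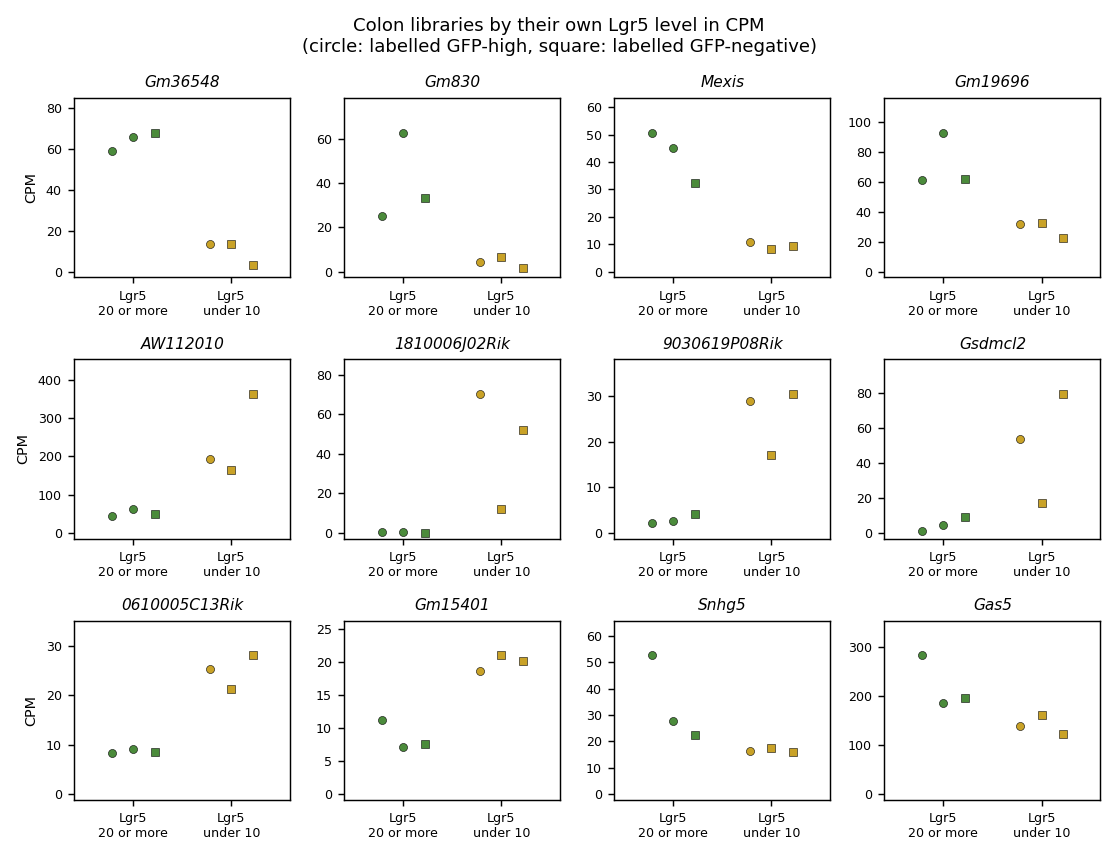
Level of 12 lncRNAs in each colon library, in CPM on linear axes that differ between panels, with libraries whose Lgr5 was 20 CPM or more on the left and under 10 CPM on the right. Circles are labelled GFP-high and squares GFP-negative; in each panel the 2 sets of 3 points do not overlap, and the square on the left and the circle on the right are the replicate 2 pair.

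Markers of some other cells moved with the same split, and their part in the gaps was not tested. Of 5 tuft and 7 stromal markers 0 were higher and 0 lower without overlap. Of 5 endothelial markers 1 was higher, and 1 of 5 red blood cell and 1 of 4 enteroglial and neural markers was lower. Of 10 immune markers 9 were lower where Lgr5 was high, with summed levels of 29.3 to 80 CPM in high-Lgr5 libraries, against 700 to 7897 CPM in low-Lgr5 ones. Of 7 enteroendocrine markers 5 were lower, with sums of 184 to 400 CPM in high-Lgr5 libraries, against 3548 to 12049 CPM in low-Lgr5 ones. Of 5 goblet markers 3 were lower, with sums of 2612 to 3370 CPM in high-Lgr5 libraries, against 12847 to 22538 CPM in low-Lgr5 ones, and of 5 Paneth markers 2 were lower and 1 higher, with sums of 75.4 to 732 CPM in high-Lgr5 libraries, against 504 to 5174 CPM in low-Lgr5 ones. Itgax, of dendritic cells, had no count in any library of high Lgr5, and Csf1r, of macrophages, had none in 2 of the 3. In small intestine the immune sum was 1195 to 2971 CPM, mostly the MHC class II chaperone gene Cd74. Cd74 was also most of the immune sum in high-Lgr5 colon libraries, at 54, 53.1 and 21.6 CPM, against 407, 126 and 4651 CPM in low-Lgr5 ones.

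The Lgr5 split and the regional comparison share the colon libraries, so their values are given side by side only. Among the 29 members higher with Lgr5, the small intestinal mean was above the colon mean in 21 (72.4%), and among the 21 lower with Lgr5 in 4 (19%). Among genes of any type that met the level rule these shares were 82% of 1382 and 28% of 1258, and over all 142 members 46.5%. Of the 29 members higher with Lgr5, 3 were higher in colon and 8 higher in small intestine with no overlap between regions. Of the 21 lower with Lgr5, these counts were 12 and 1. Shares over all genes were not computed for these counts, so nothing is read from them. Of the 12, Gm11538, Pla2g10os, Gm15401, ENSMUSG00000121716 and 9030619P08Rik are described above, and Gm15912 is named there. Foxd2os lay narrowly on the other side of the split, its lowest library of high Lgr5 at 1.01 times the highest of low Lgr5, and overlapped with median-of-ratios scaling, as did Pla2g10os with total counts.

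At the level rule's threshold, the members just inside were ENSMUSG00000125085 (10.1 CPM in colon, 0.31 CPM in small intestine), Snhg4 (6.82 CPM in colon, 10.2 CPM in small intestine) and Gm43672 (10.3 CPM in colon, 8.29 CPM in small intestine). Just outside were Firre, a nuclear organisation RNA (8.23 CPM in colon, 9.74 CPM in small intestine), Gm57304 (9.91 CPM in colon, 2.75 CPM in small intestine) and Gm32391 (6.99 CPM in colon, 9.93 CPM in small intestine).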

How the data were processed

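Polyadenylated RNA was counted in 9 libraries. The submitters' processing notes name STAR, Subread with featureCounts, edgeR and build mm10. Per the file headers, the deposited values are a raw count for every gene in every library, log2 CPM, log2 RPKM, log2 TPM, gene lengths, library totals and TMM factors (a ratio of 0.805 to 1.21). Handling of strand and of reads that map to several places is not given in the sources used here. Levels are CPM computed from the deposited counts, totals and factors, and RPKM further divides by the deposited length. Tests ran on the counts alone.

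EdgeR 4.0.16 in R 4.3.3 (filterByExpr by group, TMM, glmQLFit, glmQLFTest, two-sided) fitted all 9 libraries in 3 groups on 20610 genes, with 57629 not tested; all 142 members were tested. Colon is the mean of both fractions. The fit was tested on simulated data. P-values were adjusted over all genes tested, and calls need an adjusted p under 0.05. The SE of a log2 fold change is its absolute value divided by the square root of the edgeR F statistic. It is an approximation, least exact where 1 region holds few counts. The common biological coefficient of variation was 0.726, and 3 counts make 0.0232 to 0.0411 CPM. Intervals cover counting error only. Alternatives were DESeq2 1.42.0, limma 3.58.1, other scalings, filters, blocks, level limits and left-out libraries. Named members were those of 8 lists, the 10 most abundant, the 8 with the largest called change in each regional direction without overlap, the 8 with the widest gap in each direction of the Lgr5 split, 3 on either side of the threshold, and their nearest coding genes. Gm16136, Gm15912, 0610040F04Rik and the genes listed as Hox neighbours were chosen after their values were seen. The members and the lists were chosen with earlier results of these data known.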

Additional observations from a re-analysis of the deposited data

Results flagged for a closer look

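Among the 57 named members, 1 of the 6 colon libraries stood far from the others in 4, where chance gives such a gap in about 1 in 20 groups. Zfas1 was 23.9 CPM in GFP-high colon replicate 1, with the next library at 11.7 CPM. Snhg5 was 52.7 CPM in the same library, with the next at 27.9 CPM. ENSMUSG00000121482 was 4.7 CPM in GFP-negative colon replicate 3, with the next at 1.08 CPM. ENSMUSG00000127251 was 554 CPM in replicate 2 as labelled GFP-negative colon, with the next at 301 CPM.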

How the results depend on the processing

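The regional count of 34 called members was 54 in DESeq2 (34 of them shared), 2 with a block for the tag in the library names (both shared), 65 of 322 with a level of 5 CPM and 14 of 56 with 20 CPM. It was within 1.5 times in the other alternatives and lay between 26 and 34 with single libraries left out. The tag block leaves few of the 9 libraries free to estimate the spread, so its count cannot tell a lost difference from a weaker test. The number of members was 322 at 5 CPM and 56 at 20 CPM. Members whose Lgr5 sets did not overlap numbered 114 of 322 at 5 CPM and 24 of 56 at 20 CPM, against 50 of 142. Shares of all genes at those 2 limits were computed neither for these counts nor for the called ones. Median-of-ratios scaling, an alternative chosen after seeing the data, also gave 50 members whose Lgr5 sets did not overlap (48 shared). The count between the labelled colon fractions was 0 in every alternative run. With the replicate block the regional count was 29 (28 shared). The labels do not say that a number marks a shared animal or day, though the names of the replicate 1 and of the replicate 2 libraries share a tag between the colon fractions. Tags also join the regions: both colon replicate 1 libraries share one with small intestine replicate 2, and GFP-high colon replicate 3 with small intestine replicate 3. The main fit treats these libraries as independent. Deviations of the 9 same-numbered pairs correlated at r of -0.604 to 0.303, 2 of them over 0.1, and those of the 5 pairs that share a tag at -0.604 to 0.275. These are deviations from the means of the labelled groups, and the -0.604 is that of the colon replicate 2 pair. Since Lgr5 goes against the labels of that pair, the correlations cannot show whether libraries are paired. Of 23 single members checked 21 were called, 17 of them without each library in turn, and no direction turned in any of the 20 alternatives. Depth limits the folds of members with few small intestinal counts, and what limits the other folds was not tested. Cell sorting and tissue differ together between colon and small intestine where the labels give no fraction, and cannot be told apart.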
